A study of Mus musculus with 2 samples.

Results

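The miR-181 family of the mouse is encoded by 6 genes in 3 two-gene clusters: Mir181a-1 with Mir181b-1, Mir181a-2 with Mir181b-2, and Mir181c with Mir181d. These 6 genes were taken by symbol from the 2202 annotated miRNA genes of GENCODE release M21, and all 6 were present in both deposited count tables. Their levels were measured by microRNA sequencing in the left cerebral cortex. The mice were B6CASTF1/J, an F1 cross of the inbred strains C57BL/6J and CAST/EiJ, and were 18 to 20 months old. The labels describe a single group with 2 biological replicates, prepared from total RNA and restricted to RNA shorter than 30 nucleotides, with no treatment. Sex is labelled female in 2 fields and male in the free text. The 2 libraries carry 1 donor identifier and different biosample identifiers, so the spread between them may be technical. There is no other age, tissue or genotype in the series. With 2 values on each side, a two-sided exact permutation test between genes could not give a p below 0.333, so the values below are descriptions and carry no test between genes.

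A miRNA gene is transcribed into a hairpin, which is cut into a duplex with one strand from each arm (5p and 3p). One strand is kept in an Argonaute protein, where its seed (bases 2 to 8) pairs with target mRNAs. In this family the 5p strand is the usual mature product. The family is best known in developing thymocytes, where miR-181a sets the sensitivity of T cell receptor signalling by lowering phosphatases. In the brain it is found in neurons and astrocytes, where miR-181a has been linked to the AMPA receptor subunit GluA2 and to cell survival after ischaemia.

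The 5p sequences are shown first because they decide which reads can be given to 1 gene. RefSeq (GRCm38.p6) has mature sequences for all 6 genes and a hairpin for 5 of them. The 6 genes encode 4 distinct 5p sequences and 6 distinct 3p sequences. The seed is in capitals.
miR-181a-5p, from Mir181a-1 and Mir181a-2: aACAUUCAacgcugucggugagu
miR-181b-5p, from Mir181b-1 and Mir181b-2: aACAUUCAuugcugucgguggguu
miR-181c-5p, from Mir181c: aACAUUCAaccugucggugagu
miR-181d-5p, from Mir181d: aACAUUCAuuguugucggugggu
All 4 share the seed ACAUUCA, and among 1738 mature entries of the RefSeq table it occurred in no gene other than these 6. Counted from 1 at the 5′ end, miR-181a-5p and miR-181b-5p differed by A9U, C10U and A21G, with the miR-181a base first, and by 1 further base at the end of miR-181b-5p. miR-181b-5p and miR-181d-5p differed by C12U and by 1 base of length. miR-181c-5p was 1 edit away from miR-181a-5p, being 22 and not 23 bases long.

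The 3p sequences separate the loci that share a 5p sequence. They are shown with bases 2 to 8 in capitals.
miR-181a-1-3p: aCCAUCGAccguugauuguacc
miR-181a-2-3p: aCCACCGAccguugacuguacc
miR-181b-1-3p: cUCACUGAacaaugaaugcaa
miR-181b-2-3p: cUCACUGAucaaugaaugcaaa
miR-181c-3p: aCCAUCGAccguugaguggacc
miR-181d-3p: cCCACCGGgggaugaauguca
From miR-181a-1-3p to miR-181a-2-3p the changes were U5C and U16C, so bases 2 to 8 differ between the loci. From miR-181a-1-3p to miR-181c-3p they were U16G and U19G, so these 3p strands share bases 2 to 8. From miR-181b-1-3p to miR-181b-2-3p the change was A9U, with 1 extra base at the end of the latter.

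The 4 hairpins with a shared 5p sequence are shown whole because the identical stretch runs past the mature ends. Capitals mark the longest run that is identical between the 2 loci of 1 miRNA.
Mir181a-1: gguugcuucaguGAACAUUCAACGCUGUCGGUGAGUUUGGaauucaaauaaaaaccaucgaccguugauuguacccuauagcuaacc
Mir181a-2: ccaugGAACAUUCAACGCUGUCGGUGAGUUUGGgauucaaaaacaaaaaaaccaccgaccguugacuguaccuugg
Mir181b-1: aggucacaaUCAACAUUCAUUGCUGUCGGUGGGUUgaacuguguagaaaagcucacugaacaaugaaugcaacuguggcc
Mir181b-2: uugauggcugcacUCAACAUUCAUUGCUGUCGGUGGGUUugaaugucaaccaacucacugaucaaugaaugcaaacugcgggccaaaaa
The miR-181a loci shared a run of 28 bases that held the whole 5p strand, and their first differences lay 2 bases before it and 5 bases after it. The miR-181b loci shared 26 bases, and their first differences lay 3 bases before the 5p strand and 1 base after it. A read that lies within such a run fits both loci. Reads with several places in the genome are listed apart in the deposited tables and are not split by gene. They numbered 6203588 in replicate 1 and 5928954 in replicate 2, or 41.8% and 46.4% of all reads. The values of Mir181a-1, Mir181a-2, Mir181b-1 and Mir181b-2 below therefore count reads that fit 1 locus alone, and say little about the amount of miR-181a-5p or miR-181b-5p. Each table gives 1 count per gene, so 5p and 3p strands cannot be told apart. The part of the shared reads that came from these genes was not tested.

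In the annotation (mm10) the clusters lie on 3 chromosomes. Mir181a-1 (chromosome 1, 137966455 to 137966541, plus strand) and Mir181b-1 (137966639 to 137966718) are 97 bases apart, in an intron of the long non-coding gene Gm4258. Mir181b-1 also lies within an exon of the non-coding A430106G13Rik on the same strand, and 11 bases of Mir181a-1 overlap that exon. Mir181a-2 (chromosome 2, 38852735 to 38852810, plus strand) and Mir181b-2 (38853830 to 38853918) are 1019 bases apart and lie opposite an intron of Nr6a1, which encodes an orphan nuclear receptor. Mir181b-2 also lies opposite an exon of the unclassified transcript Gm44144. Mir181d (chromosome 8, 84178716 to 84178787, minus strand) and Mir181c (84178873 to 84178961) are 85 bases apart in an intron of a Nanos3 transcript. Nanos3 encodes an RNA-binding protein of germ cells. No other miRNA gene overlaps any of the 6.

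Levels are CPM, the count of a gene for each 1000000 sense counts of all miRNA genes. Sense counts totalled 5166667 in replicate 1 and 4459993 in replicate 2. A count of 0 would allow up to 0.581 CPM and 0.673 CPM, taking 3 counts as the limit. All 6 members reached 2 CPM in both libraries, the level from which a gene was called expressed here, against 409 of all 2202 miRNA genes (18.6%). Together they held 21919 sense counts in replicate 1 and 19404 in replicate 2. Their sum was 4242 CPM and 4351 CPM, a mean of 4297 ± 76.6 CPM (SD, n = 2). This was 0.424% of sense counts in replicate 1 (95% exact binomial interval 0.419% to 0.430%) and 0.435% in replicate 2 (0.429% to 0.441%). Intervals cover counting error only and hold no spread between libraries. Reads were not counted by molecular identifiers in the sources used here, so the counts are of reads and not of molecules. Relative to its mean, the family sum differed less between the libraries than the level of any single member.

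The Mir181c and Mir181d cluster held most of the counts. It summed to 2607 CPM (replicate 1) and 2528 CPM (replicate 2), a mean of 2568 ± 55.5 CPM (SD, n = 2), or 61.4% of the family's counts (60.8% to 62.1%) and 58.1% (57.4% to 58.8%). Mir181d had 6943 and 7149 counts, or 1344 CPM (replicate 1) and 1603 CPM (replicate 2). It was the highest member in both libraries, at a mean of 1473 ± 183.2 CPM (SD, n = 2), rank 74 of all miRNA genes by mean level. Mir181c had 6526 and 4128 counts, at 1263 CPM and 925.6 CPM, a mean of 1094 ± 238.7 CPM (SD, n = 2) and rank 91. Mir181c is known from heart muscle, where its product enters mitochondria and acts on a mitochondrial mRNA. Both genes have a 5p sequence of their own, so their 5p reads fit 1 place among the RefSeq miRNAs.

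In the Mir181a-2 and Mir181b-2 cluster nearly all counts were at Mir181b-2. The cluster summed to 1266 CPM and 1284 CPM (1275 ± 13.1 CPM, SD, n = 2), or 29.8% and 29.5% of the family's counts. Mir181b-2 had 6378 counts in replicate 1 and 5715 in replicate 2, at 1234 CPM and 1281 CPM, a mean of 1258 ± 33.2 CPM (SD, n = 2) and rank 86. Its SD was 2.64% of its mean, the smallest of the 6 genes. Mir181a-2 had 162 counts in replicate 1 and 13 in replicate 2. This was 31.4 CPM (95% exact Poisson interval 26.7 to 36.6) against 2.91 CPM (1.55 to 4.98), so the lower library lay within counting error of the 2 CPM threshold. Its mean was 17.1 ± 20.1 CPM (SD, n = 2), with an SD larger than the mean.

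In the Mir181a-1 and Mir181b-1 cluster the order of the partners was the reverse, with the miR-181a locus far above the miR-181b locus. The cluster summed to 369.7 CPM (replicate 1) and 537.9 CPM (replicate 2), a mean of 453.8 ± 118.9 CPM (SD, n = 2), or 8.71% and 12.4% of the family's counts. Mir181a-1 had 1844 and 2307 counts, at 356.9 CPM and 517.3 CPM, a mean of 437.1 ± 113.4 CPM (SD, n = 2) and rank 128. Mir181b-1 had 66 and 92 counts, at 12.8 CPM (9.88 to 16.3) and 20.6 CPM (16.6 to 25.3), a mean of 16.7 ± 5.55 CPM (SD, n = 2) and rank 292.

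**Figure D1:**
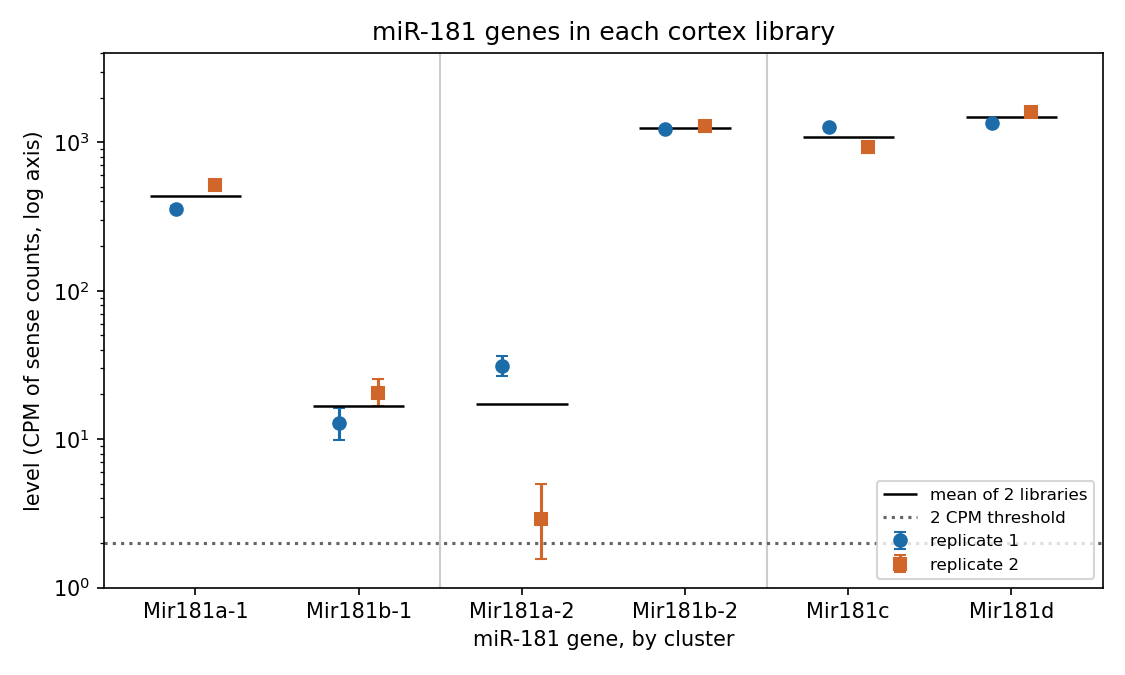
Level of each miR-181 gene in replicate 1 (circles) and replicate 2 (squares) in CPM of sense counts on a log axis, with 95% exact Poisson intervals for counting error, the mean of the 2 libraries (black lines) and the threshold of 2 CPM (dotted). Mir181d, Mir181b-2 and Mir181c lie between 925.6 and 1603 CPM, Mir181a-1 between 356.9 and 517.3 CPM, and Mir181b-1 and Mir181a-2 at or below 31.4 CPM.

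By mean level the order was Mir181d, Mir181b-2, Mir181c, Mir181a-1, Mir181a-2 and Mir181b-1. It was the same per base of annotated hairpin length, which ran from 72 to 89 bases. Not all neighbours in this order were separated by the spread of the libraries. Mir181c was above Mir181b-2 in replicate 1 and below it in replicate 2, and Mir181a-2 and Mir181b-1 changed places likewise. The ranges of Mir181d and Mir181b-2 did not overlap, nor did those of Mir181c and Mir181a-1. The 4 highest members exceeded the median of expressed miRNA genes, 88.9 CPM, and Mir181d, Mir181b-2 and Mir181c also exceeded their upper quartile, 779.1 CPM. Of expressed genes, 29.1% lay below Mir181a-2 and 28.6% below Mir181b-1.

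**Figure D2:**
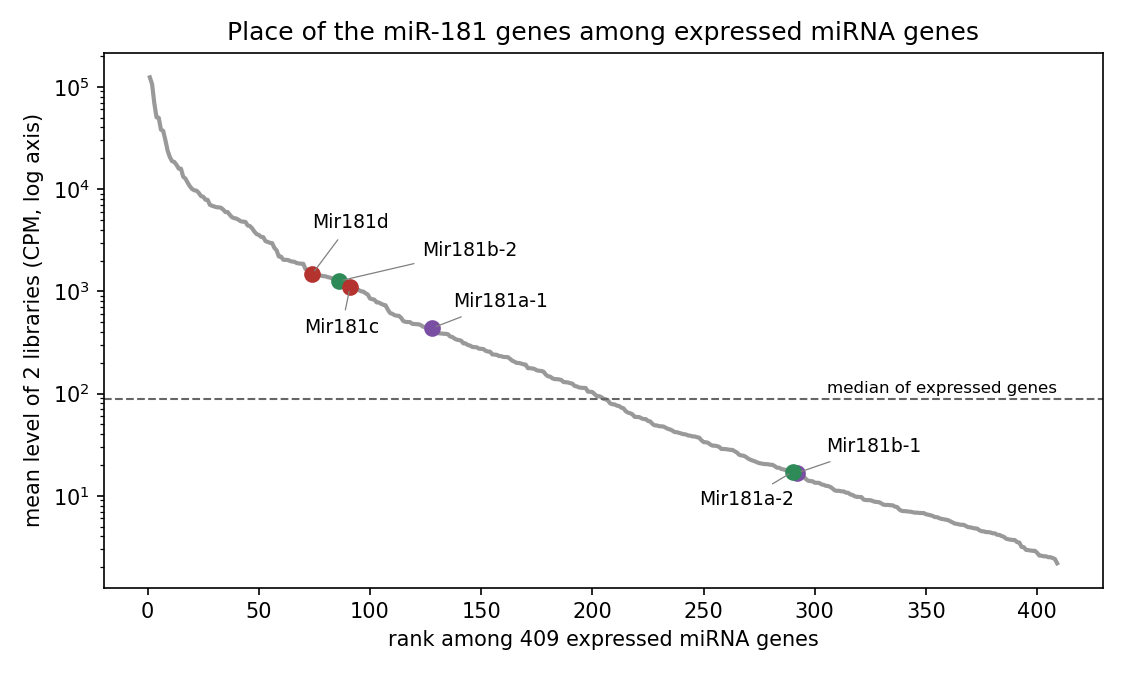
Mean level of the 2 libraries (CPM, log axis) of the 409 expressed miRNA genes against their rank (grey line), with the 6 miR-181 genes as points coloured by chromosome (purple 1, green 2, red 8) and the median of 88.9 CPM dashed. Mir181d, Mir181b-2, Mir181c and Mir181a-1 lie above the median at ranks 74 to 128, and Mir181a-2 and Mir181b-1 lie close together at ranks 290 and 292.

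The genes nearest in level, were found by distance of log2(CPM + 1) over the 2 libraries. For Mir181d they were Mir337 (1457 ± 39.9 CPM, SD, n = 2) and Mirlet7c-2, and for Mir181b-2 they were Mir370 and Mir341. Mir181c lay within 0.027 log2 units of Mir1839 (1242 and 917.7 CPM), with Mir125b-1 next. Mir181a-1 lay nearest to Mir28a and Mir300, and Mir181b-1 to Mir582 and Mir362. Of these, Mir337, Mir370, Mir341 and Mir300 are miRNAs of the imprinted Dlk1-Dio3 domain. The share of that domain among all expressed genes is not given here, so no link to the miR-181 genes is drawn. The nearest gene to Mir181a-2 was Mir141, an epithelial miRNA of the miR-200 family, with 36.2 CPM (replicate 1) and 4.04 CPM (replicate 2), followed by Mir1930 at 23.8 CPM and 7.62 CPM. A likeness over 2 libraries is weak and is given as a description.

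The 2 loci of each duplicated miRNA differed widely in countable reads. Mir181a-1 exceeded Mir181a-2 by a log2 count ratio of 3.50 in replicate 1 and 7.42 in replicate 2, so the size of this gap rests on the 13 counts of Mir181a-2 in replicate 2. For miR-181b the gap was in the other direction, with a log2 ratio of Mir181b-1 to Mir181b-2 of -6.58 in replicate 1 and -5.95 in replicate 2. In 25 such pairs of loci with 20 or more counts, ordered by the size of the mean log2 ratio, miR-181b held place 3 (size 6.27) and miR-181a place 4 (size 5.46). The median size over the other 23 pairs was 1.81, with a range from 0.26 to 9.34. The pairs just above were Mir219a (34 and 6 counts at locus 1 against 11391 and 8288 at locus 2) and Mir194, which had no count at locus 1 in either library. The pairs just below were Mir92 (size 4.24) and Mir3074, which had 0 and 3 counts at locus 2. The sizes for Mir194 and Mir3074 depend on the 0.5 added to each count.

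The members were set beside all genes by whether their mature sequences occur at other loci. RefSeq mature sequences were matched to 1018 of the 2202 genes. The 4 members with a shared 5p and a 3p of their own belong to a class of 57 genes in which some mature sequences are shared. Of these 57 genes, 38 were expressed (66.7%), with a median of 94.8 CPM among the expressed. Mir181c and Mir181d belong to the 924 genes with no shared mature sequence, of which 322 were expressed (34.8%), with a median of 108.8 CPM. The class of 37 genes in which all mature sequences are shared had 7 expressed genes (18.9%) and held no member. What sets these shares was not tested.

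Partners in a cluster, which lie close together, also differed in countable reads. Reads that fit several places are left out, so these gaps need not be gaps in level where a mature sequence is shared. This applies to the Mir181a-1 and Mir181a-2 clusters, and to other pairs with a duplicated locus, such as Mir29b-1 or Mirlet7c-1. Mir181c and Mir181d each have a 5p sequence of their own. Mir181d and Mir181c were close, with a log2 count ratio of Mir181d to Mir181c of 0.09 in replicate 1 and 0.79 in replicate 2. Mir181b-1 lay below Mir181a-1 by log2 ratios of -4.79 and -4.64, a mean difference of 26.3-fold that was similar in the libraries. Mir181b-2 lay above Mir181a-2 by log2 ratios of 5.29 and 8.73. In 17 other pairs of clustered miRNA genes with both partners expressed, chosen by symbol, the median size of the mean log2 ratio was 4.52 and the range 0.60 to 8.56. By this mean, all 17 had a larger gap in countable reads between partners than Mir181c and Mir181d. In replicate 2 alone this did not hold. There the log2 ratio was 0.06 for Mir16-2 to Mir15b and -0.70 for Mir16-1 to Mir15a, both smaller in size than 0.79. By the mean, 8 of the 17 pairs had a larger gap than Mir181a-1 and Mir181b-1. A larger gap than Mir181a-2 and Mir181b-2 was seen in 2, namely Mir136 with Mir127 (8.56) and Mir29a with Mir29b-1 (8.30). Mir136 and Mir127 are 2411 bases apart and belong to a larger group of miRNA genes in the Dlk1-Dio3 domain.

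**Figure D3:**
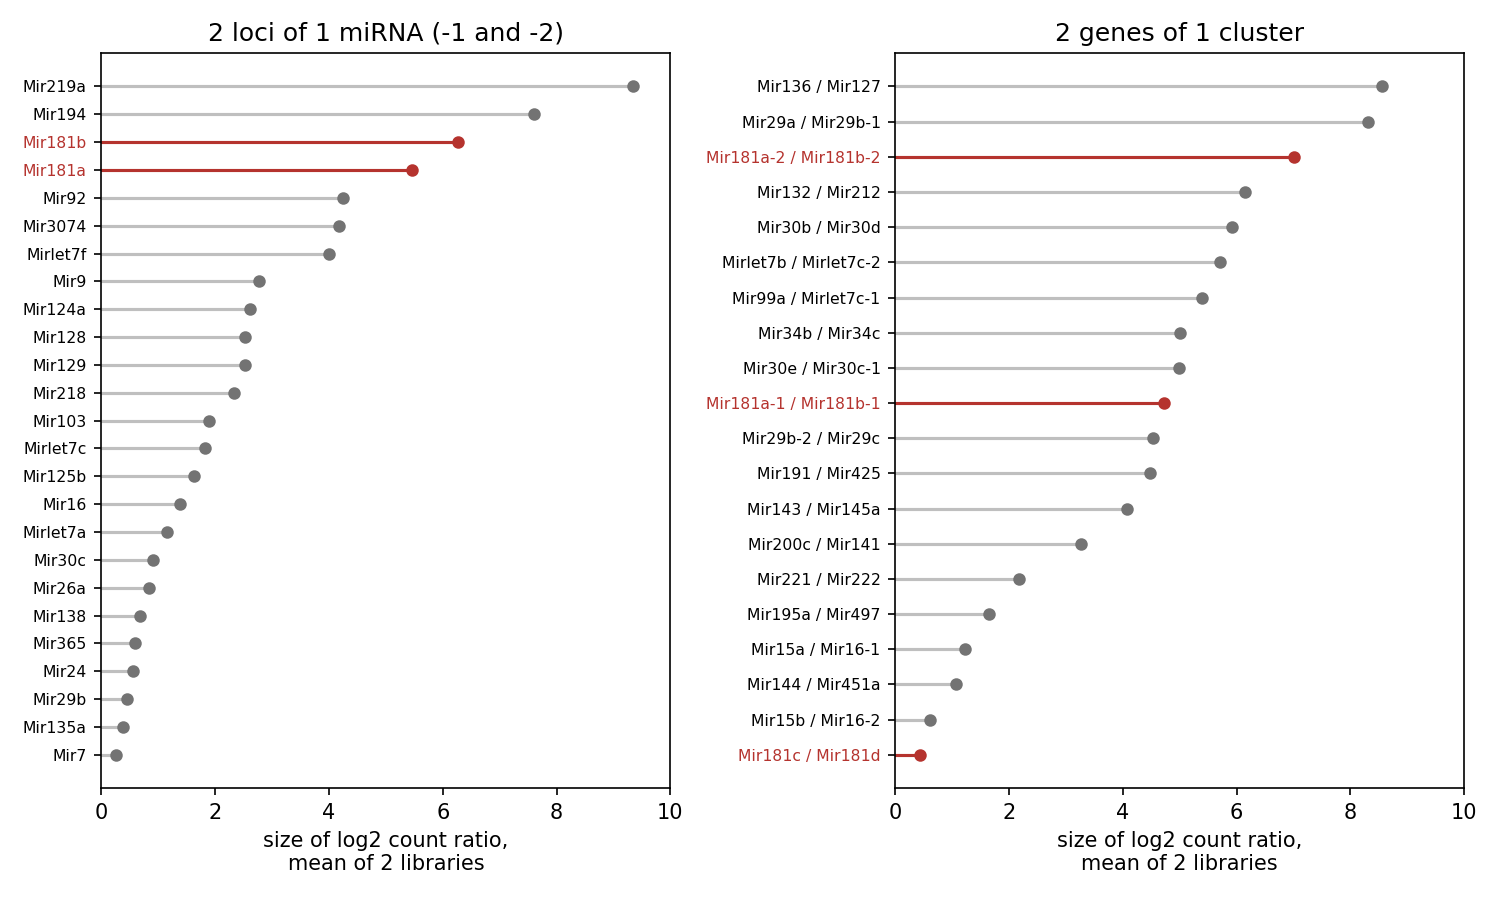
Size of the log2 count ratio (mean of 2 libraries, 0.5 added to each count) between the 2 loci of 1 miRNA in 25 pairs (left) and between the genes of 20 clustered pairs with both genes expressed (right), miR-181 in red. The pairs of miR-181b (6.27) and miR-181a (5.46) stand near the top on the left, and Mir181c with Mir181d (0.44) stands at the foot on the right.

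Between the libraries, 1 of the 6 members differed over 2-fold, against 95 of the 409 expressed genes (23.2%), after TMM scaling, a method of edgeR that sets the bulk of genes level. Of the expressed genes, 59 (14.4%) were over 2-fold higher in replicate 1, and Mir181a-2 was the 1 member among them. The members' median log2 ratio of replicate 2 to replicate 1 was 0.34, and that of all expressed genes was 0.02. The median size without sign was 0.58 for the members and 0.54 for all expressed genes. These ratios compare 1 library with another and not 2 conditions. TMM moved all log2 ratios by 0.19 relative to raw totals. No member's ratio changed sign under raw totals, DESeq2 size factors or TMM over all genes with a count.

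Mir181a-2 had a log2 ratio of -3.19 (95% exact binomial interval for counting error, -4.18 to -2.42), a 9.12-fold lower level in replicate 2. The size of this ratio exceeded that of 98.8% of expressed genes. Its neighbour Mir181b-2 had a log2 ratio of 0.24 (0.19 to 0.29). The partners' ratios were thus 3.43 log2 units apart, more than in any of the 17 other pairs, whose gaps ran from 0.08 to 1.70 with a median of 0.54. Listed pairs left out because a partner was not expressed had larger gaps in part, 3.18 for Mir338 with Mir3065 and 2.38 for Mir199a-2 with Mir214. The gap for Mir96 with Mir183 was 1.02. Both genes of the chromosome 1 cluster were higher in replicate 2, Mir181a-1 with 0.72 (0.63 to 0.81) and Mir181b-1 with 0.88 (0.41 to 1.36), a gap of 0.15. Mir181c had -0.26 (-0.32 to -0.20) and Mir181d had 0.44 (0.39 to 0.49), in opposite directions with a gap of 0.70.

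**Figure D4:**
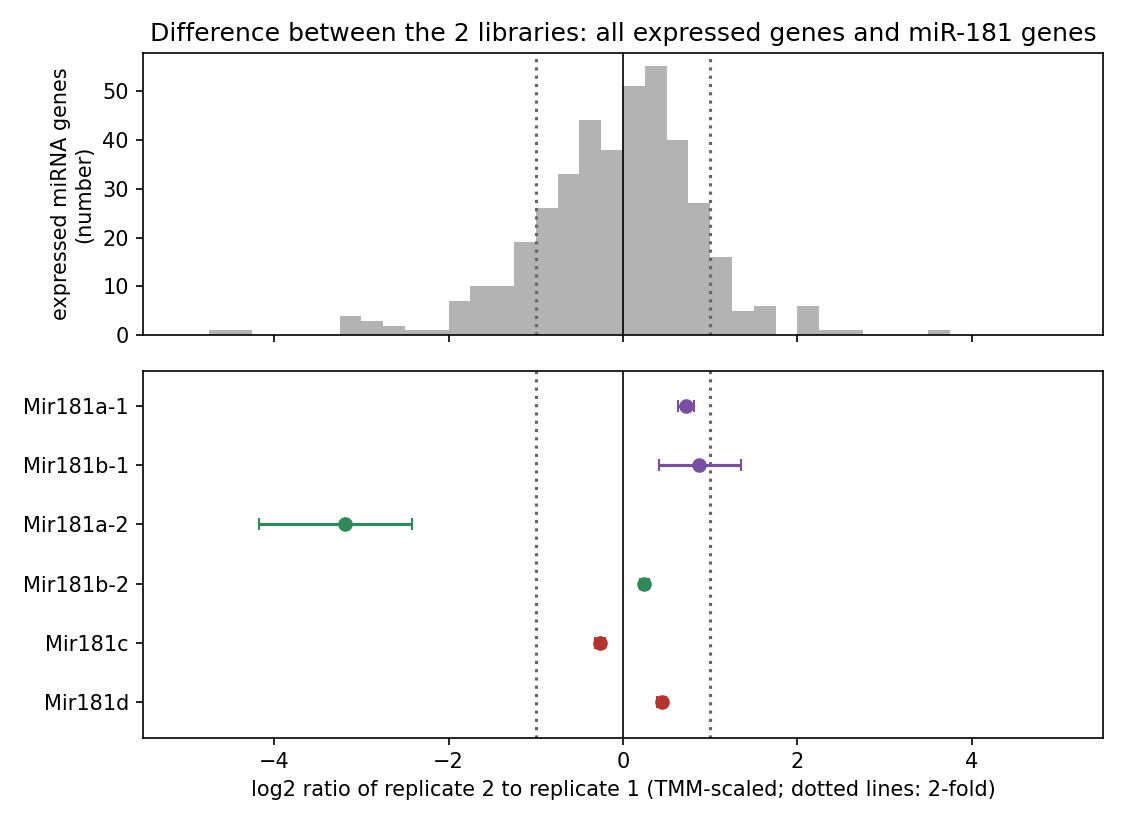
Log2 ratio of replicate 2 to replicate 1 after TMM scaling, as a histogram of the 409 expressed miRNA genes (top) and for each miR-181 gene with its 95% exact interval for counting error (bottom, coloured by chromosome as before); dotted lines mark 2-fold. Mir181a-2 lies at -3.19, outside the 2-fold lines, and the other 5 members lie between -0.26 and 0.88.

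Marker miRNAs of other cell types also differed between the libraries. The marker lists were chosen with earlier results of these data known, so the shares below are descriptions and not independent support. Genes of a list can share a cluster, such as Mir200c and Mir141, 336 bases apart, and are then not separate observations. In the epithelium list (Mir200a, Mir200b, Mir200c, Mir141, Mir429, Mir203 and Mir205) 6 of 7 genes were over 2-fold higher in replicate 1, against 14.4% of expressed genes, and the list's sum was 1555 CPM (replicate 1) and 398.0 CPM (replicate 2). The other gene, Mir203, went the opposite way, from 77.8 CPM to 274.0 CPM (log2 ratio 2.00). All 3 genes of the sensory epithelium list (Mir96, Mir182 and Mir183) were over 2-fold higher in replicate 1, with sums of 1007 CPM and 105.2 CPM. Only 2 of the 3 were expressed in both libraries, since Mir96 had 1.79 CPM in replicate 2. No gene of either list was at 0 in both libraries. The sums of both lists, though not Mir203, were thus lower in replicate 2, as was Mir181a-2. The sum of the choroid plexus and ciliated epithelium list was higher in replicate 2, at 726.0 CPM and 1113 CPM. Mir34b and Mir34c, 2 of its 4 expressed genes, were over 2-fold higher there, against 8.8% of expressed genes. Mir34c alone went from 163.0 CPM to 604.3 CPM. Its other expressed genes stayed within 2-fold, Mir204 at 532.6 CPM and 467.0 CPM (log2 ratio -0.001) and Mir449a at 22.3 CPM and 24.0 CPM (0.30). The endothelial Mir126a was lower in replicate 2, at 21257 CPM and 10411 CPM, but within 2-fold after TMM scaling (log2 ratio -0.84). The part of any of these lists in the difference of Mir181a-2 was not tested. The leukocyte list, of interest because of the family's role in lymphocytes, had all 6 genes expressed and summed to 1941 CPM and 2008 CPM. Its genes Mir142 and Mir223, 2 of 6, were over 2-fold higher in replicate 2, against 8.8% of expressed genes, and opposite to Mir181a-2. The mural cell genes Mir143 and Mir145a summed to 5077 CPM and 9896 CPM. Both were over 2-fold higher in replicate 2 (log2 ratios 1.10 and 2.00), against 8.8% of expressed genes, and opposite to Mir181a-2. In bulk tissue, fewer cells of a type and less RNA per cell cannot be told apart.

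The labelled tissue was checked against 12 miRNA genes of cortical neurons. Of these 9 were expressed, and the list's sum was 79277 CPM (replicate 1) and 66141 CPM (replicate 2), led by Mir132, Mir128-1 and Mir137. The 3 genes of miR-124, a defining neuronal miRNA whose mature sequence has several loci, did not reach the threshold in both libraries. The oligodendrocyte list summed to 3952 CPM and 3864 CPM with 2 of 4 genes expressed.

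At all 6 members the count without strand equalled the sense count in both libraries, and the antisense count was 0. Over all miRNA genes there were 405917 antisense counts in replicate 1 and 329066 in replicate 2. The members' counts are therefore the same in the sense and unstranded columns, while their CPM differs through the total.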

How the data were processed

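The values are read counts per miRNA gene, deposited by the authors as 1 table per library without normalization. Per the file headers of the deposited descriptions, the tables use build mm10 and GENCODE release M21, with no aligner or counter named (not given in the sources used here). All 2202 gene identifiers matched the miRNA genes of GENCODE M21, which gave symbols and coordinates. The stranded column with the larger total was taken as sense. The 4 lines that name no gene (65.2% of reads in replicate 1 and 65.1% in replicate 2) were left out. CPM used the sense total. Ratios add 0.5 to each count and use TMM totals (edgeR 4.0.16) over genes at 2 CPM or more in both libraries. DESeq2 1.42.0 size factors were an alternative. Intervals are exact 95% (scipy 1.17.1). The calculation of ratios was tested on simulated counts with counting error only. These held no further spread between libraries, so the test covers the calculation and not how often real libraries differ. The named genes were the 6 members, the 2 expressed genes nearest in level to each, and the pairs of loci next above and below. The members and lists were chosen with earlier results of these data known. Mature and hairpin sequences are from RefSeq (GRCm38.p6).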

Additional observations from a re-analysis of the deposited data

Results flagged for a closer look

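Reads outside the gene counts stood far above the limit of 3 counts. Replicate 1 held 6203588 reads that fit several places, and replicate 2 held 5928954. They are not split by gene, and the share that carries a miR-181a or miR-181b sequence was not tested.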

How the results depend on the processing

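The number of expressed miR-181 genes was 6 at 1 CPM and 5 at 5 CPM and at 10 CPM, Mir181a-2 being the one lost. The shares of all miRNA genes at these thresholds are not given here. At 2 CPM the number was 6 in either library alone and 6 in the unstranded column. Neither could be lower, since all 6 passed in both libraries and the unstranded column has the same member counts with a smaller total. For each 1000000 of all reads in the table, the family summed to 1497, the Mir181a-1 cluster to 158.2, the Mir181a-2 cluster to 444.3 and the Mir181c cluster to 894.7. On the unstranded column, whose total is smaller, the family summed to 4650 CPM, the Mir181a-2 cluster to 1380 CPM and the Mir181c cluster to 2779 CPM. In 1 library alone the family sum ran from 4242 to 4351 CPM. At 1.5-fold, 3 members differed between the libraries (Mir181a-1, Mir181b-1 and Mir181a-2), and at 4-fold 1 did. The shares of all expressed genes past these folds are not given here, so these counts have no background. The median size of the log2 ratio over all expressed genes was 0.54, so many of them lie near the 1.5-fold limit or past it. The count over 2-fold was 1 under raw totals and under DESeq2 size factors. Of 36 alternative values of the members' ratios, 29 stayed within the counting interval, 7 moved beyond it and 0 changed sign. All 18 alternative values of the ratios between partners stayed within the counting interval, but they could hardly do otherwise. They came only from other small amounts added to each count and from the unstranded column. Member counts in that column equal the sense counts, so its ratios were the same by construction. Scaling of the libraries cancels in a ratio within 1 library. These 18 values are therefore no check on the processing. Counting error was widest for Mir181a-2, with 13 counts in replicate 2. No paired analysis was possible because there is 1 group.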
